A study of Mus musculus with 18 samples.

Results

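Quadriceps muscle of 2-month-old mice that carried Cre recombinase and floxed Pofut1 alleles (knockout) was compared with quadriceps of 2-month-old mice that carried the same Cre and wild-type Pofut1 (Cre controls). The comparison used 6 of the 18 libraries of the series, 3 for each group, which were chosen by the labels for genotype and age. In both groups the skeletal alpha actin promoter, a promoter of muscle fibres, drives Cre, so by label the groups differ only in the Pofut1 alleles. Satellite cells, fibroblasts, vessels and other cells of the muscle are not targets of this promoter and are part of each sample. Beside them stand 3 libraries of 2-month-old Pofut1flox/flox mice without Cre (floxed controls), and 3 libraries of each of the 3 genotypes at 17 months. All mice are labelled as strain C57/Bl6. The libraries are described as replicates, and the labels do not say whether animals were pooled, so p-values measure the spread between these samples.

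Pofut1 encodes protein O-fucosyltransferase, which attaches fucose to certain EGF-like repeats of secreted and membrane proteins in the endoplasmic reticulum. The best known of these proteins are the Notch receptors, whose O-fucose can be extended by Fringe enzymes such as Lfng and which need the modification to respond to Delta and Jagged ligands. In skeletal muscle, Notch signalling is known for keeping satellite cells, the stem cells of the fibres, quiescent.

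The knockout libraries held 25711893 to 26957927 counts and the Cre libraries 26613963 to 27518147, with 18.9 to 21.3% and 16.2 to 22% of them on Ttn, which encodes titin. All 17 fast fibre and all 13 slow fibre genes were measured, and Myh4, the myosin of the fastest fibres, lay between 80066 and 112463 CPM (counts scaled to library size) in the 6 libraries, so the tissue label held. High Xist marked 1 library of 3 in each 2-month group (knockout 82, Cre 94 and floxed 32). Replicates of a group had Spearman correlations of 0.979 to 0.988, and no pair was a repeat of 1 library. In bulk muscle, fewer cells of a type and less RNA per cell cannot be told apart.

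The libraries differed in the beta-globin genes they used, which come from the blood in the tissue. Hbb-bs and Hbb-bt are the adult beta-globin genes of the haplotype found in C57BL/6 mice, and Hbb-b1 and Hbb-b2 are the nearly identical genes of a haplotype found in several other inbred strains. Hbb-b1 and Hbb-b2 made up 71.4, 99.1 and 99.9% of beta-globin CPM in knockout libraries 80, 82 and 83. In Cre libraries 93, 94 and 61 the share was 0.3, 2.8 and 0.4%, and in floxed libraries 32, 57 and 92 it was 67.4, 0.4 and 0.3%. At 17 months all 3 genotypes held at least 1 library at about 70% and at least 1 under 3%. Nnt, a mitochondrial transhydrogenase whose gene is partly deleted in the C57BL/6J substrain, was at 14.4, 20.8 and 16.7 CPM in the knockout and at 40.8, 46.8 and 46.7 CPM in the Cre group, with no overlap (log2 difference -1.37, SE 0.405, edgeR adjusted p = 0.351). Floxed libraries 32, 57 and 92 had 58.5, 44.2 and 61.4 CPM of Nnt. At 17 months knockout libraries 17, 45 and 40 had 18.9, 59.8 and 46 CPM, at globin shares of 68.4, 2.1 and 99.9%. Floxed libraries 48, 46 and 5 had 21.2, 72.9 and 83.6 CPM there, at shares of 0.7, 69.6 and 99.3%, and Cre libraries 58.8 to 70.5 CPM. Nnt thus did not follow the globin share in every library. The beta-globin genes and Nnt were chosen after their values were seen. At 2 months the globin share separated knockout from Cre libraries as completely as the genotype did, so at this locus haplotype and genotype cannot be told apart, and the part of such inherited differences in the results below was not tested.

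**Figure D1:**
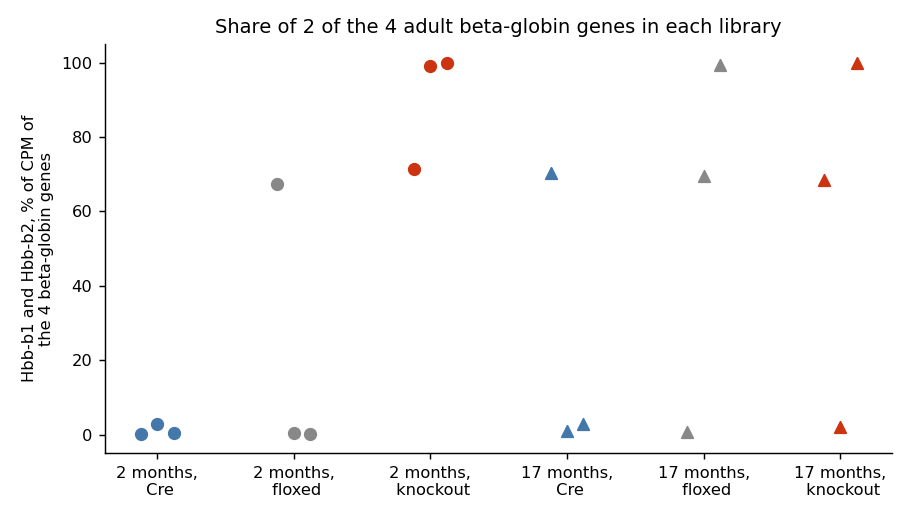
Share of Hbb-b1 and Hbb-b2 in the summed CPM of the 4 adult beta-globin genes, in percent, for each of the 18 libraries by age and genotype (circles, 2 months; triangles, 17 months). The knockout libraries at 2 months lie at 71.4% or above and the Cre libraries at 2.8% or below.

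Pofut1 itself (Entrez 140484; GRCm38 chromosome 2, 153241532 to 153271029) was lower in every knockout library, at 9.61, 9.30 and 9.60 CPM, than in every Cre library, at 16.2, 19 and 13.8 CPM. The floxed libraries held 19.6, 17.8 and 17.0 CPM, which overlaps with the Cre group. The difference was 1.72-fold (log2 -0.78, SE 0.155) and did not pass edgeR's quasi-likelihood test over all genes (adjusted p = 0.12), whereas the authors' deposited table gives it an adjusted p of 0.00286. The reads that remain are whole-gene counts, and the deleted exons were not looked at separately here. At 17 months the knockout libraries held 10.6, 10.5 and 16.3 CPM and the Cre libraries 18.3, 15.8 and 16.3 CPM. The floxed libraries held 13.5, 14.8 and 12.7 CPM there. Library 40 of the older knockout, at 16.3 CPM, lay within the range of the Cre libraries and above every floxed library.

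By edgeR and DESeq2 0 Notch receptors, ligands or target genes passed over all genes. By edgeR 1 of 7 receptors and ligands (Dll1) and 1 of 14 targets (Ccnd1) had an unadjusted p under 0.05. Over all genes the share was 8.28%, so these counts do not set the lists apart. Of 11 listed receptors and ligands 7 were measured, and 6 of them had a higher mean in the knockout, with a median log2 difference of 0.24 against -0.004 over all genes. Dll1, a Notch ligand, was at 6, 6.48 and 5.97 CPM in the knockout and 5.18, 3.32 and 3.39 CPM in the Cre group, which do not overlap (log2 0.63, SE 0.248, adjusted p = 0.522). Notch1 was at 13.6, 12.5 and 11.7 CPM against 7.24, 9.44 and 11.7 CPM (adjusted p = 0.617). The 14 measured targets had a median of 0.03, with 9 positive and 5 negative, and of -0.09 without knockout library 80. Hes1, a transcriptional repressor induced by Notch, ranged from 10.1 to 18.9 CPM in the knockout and from 8.38 to 12.2 CPM in the Cre group. Heyl and Nrarp, further targets, had log2 differences of 0.16 and -0.44, and Hey1 had -0.53 (adjusted p = 0.636), with overlapping libraries in each case. Among 25 processing and signalling genes, Pofut1, Lfng (log2 0.53) and Maml1, a coactivator of Notch (0.33), had an unadjusted p under 0.05 by edgeR, against 8.28% of all genes. Pofut2, which fucosylates thrombospondin repeats, differed by -0.00. Pax7, the marker of satellite cells, was at 1.32 to 1.97 CPM in the knockout and 0.909 to 1.68 CPM in the Cre group.

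Over all 15224 genes 2 passed, 1 higher and 1 lower in the knockout, which is 0.0131% of the genes tested. The higher gene was LOC102640133, a long noncoding RNA listed by RefSeq as Gm19378 (chromosome 15, 89767615 to 89769242). It stood at 10.4, 10.3 and 12.2 CPM in the knockout and at 2.33, 2.35 and 1.71 CPM in the Cre group, a 5.13-fold difference (log2 2.36, SE 0.147, adjusted p = 4.46e-07). Floxed muscle, which has no Cre, held 11.9, 13.2 and 13 CPM, so the Cre controls were the low group and knockout minus floxed muscle was -0.21 (SE 0.133, adjusted p = 0.847), in a comparison that uses the same knockout libraries and called 1 gene (0.00657%). The same order held at 17 months, where the knockout libraries had 14.3, 11.4 and 14.2 CPM and the Cre libraries 2.69, 2.12 and 2.40 CPM (log2 2.47, SE 0.146, adjusted p = 2.06e-07).

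The lower gene was Phlda3 (chromosome 1, 135766085 to 135769134), a p53-induced protein that restrains Akt at the membrane. Its level was 8.81, 9.30 and 12.6 CPM in the knockout and 52.4, 45.0 and 59.7 CPM in the Cre group, a 5.11-fold difference (log2 -2.35, SE 0.29, adjusted p = 0.00354). The floxed libraries were at 20.6, 39.3 and 37.5 CPM, between the groups and without overlap with either. The call was lost without knockout library 80 (adjusted p = 0.0873) or without knockout library 82 (adjusted p = 0.0858). At 17 months the knockout libraries had 40.4, 52.6 and 32.2 CPM and overlapped with Cre libraries at 41.9, 44.5 and 77.6 CPM (log2 -0.39). The change of the difference with age was not called (log2 -1.97, SE 0.392, adjusted p = 0.508). Of 26 measured p53 targets, Phlda3 included, 11 had positive and 15 negative differences with a median of -0.04. Non-overlapping groups were found for 5 on the lower side (7.34% of all genes) and 3 on the higher side (7.88% of all genes). By edgeR 4 had an unadjusted p under 0.05 on the lower side (3.85% of all genes). On the higher side 1 had it, Ddit4 (log2 1.61), against 4.43% of all genes. Plk2, a polo-like kinase, was at 10.2, 9.09 and 9.42 CPM against 16.3, 13.5 and 22.4 CPM (log2 -0.86, adjusted p = 0.351), and Eda2r, a receptor of ectodysplasin, and Ccng1, cyclin G1, had log2 differences of -0.74 and -0.39. The summed level of the list was 3004, 2918 and 3231 CPM in the knockout and 3907, 3461 and 3503 CPM in the Cre group. Floxed muscle held 3097, 3121 and 3117 CPM, within the range of the knockout. Eda2r in floxed muscle, at 18.9 to 20.5 CPM, was also within the knockout range of 16.7 to 23.4 CPM. Cdkn1a, which arrests the cell cycle, overlapped (0.681 to 1.92 CPM against 0.584 to 1.05 CPM).

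The bases before the starts of these 2 genes are shown because they are the only ones called (250 bases each, RefSeq on GRCm38.p6; chr1:135765835-135766084, plus strand and chr15:89767365-89767614, plus strand). Neither window holds a CCAAT box, written CCAAT or ATTGG on the other strand, which is searched again below and would stand in capitals.
Phlda3: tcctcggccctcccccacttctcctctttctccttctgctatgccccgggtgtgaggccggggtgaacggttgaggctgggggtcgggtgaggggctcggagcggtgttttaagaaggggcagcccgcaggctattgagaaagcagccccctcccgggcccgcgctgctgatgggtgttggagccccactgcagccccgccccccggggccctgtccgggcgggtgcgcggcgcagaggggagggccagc
LOC102640133: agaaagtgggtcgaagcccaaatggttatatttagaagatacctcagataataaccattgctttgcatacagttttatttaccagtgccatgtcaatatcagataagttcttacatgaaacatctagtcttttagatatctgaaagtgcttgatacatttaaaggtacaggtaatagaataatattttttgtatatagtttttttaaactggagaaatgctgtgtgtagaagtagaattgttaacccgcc

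Below that threshold, unadjusted p was under 0.05 for 1260 genes (8.28%) and under 0.01 for 329 (2.16%), and 2318 genes (15.2%) had every knockout library above or below every Cre library. The authors' deposited table calls 48 genes at an adjusted p under 0.05 (0.315%), 29 higher and 19 lower, among them the 2 above. All 48 had non-overlapping groups, in the same libraries that gave the calls, so this adds no evidence for them. Of these 48, 37 had the same sign at 17 months, where the libraries are other samples, against 58.2% of all genes. Non-overlapping groups in the same direction were found again for 12. Of all 2318 genes with non-overlapping groups at 2 months, 285 had them again in the same direction at 17 months. In either direction, 15.8% of all genes had non-overlapping groups there. DESeq2 run here on the same counts called 47.

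**Figure D2:**
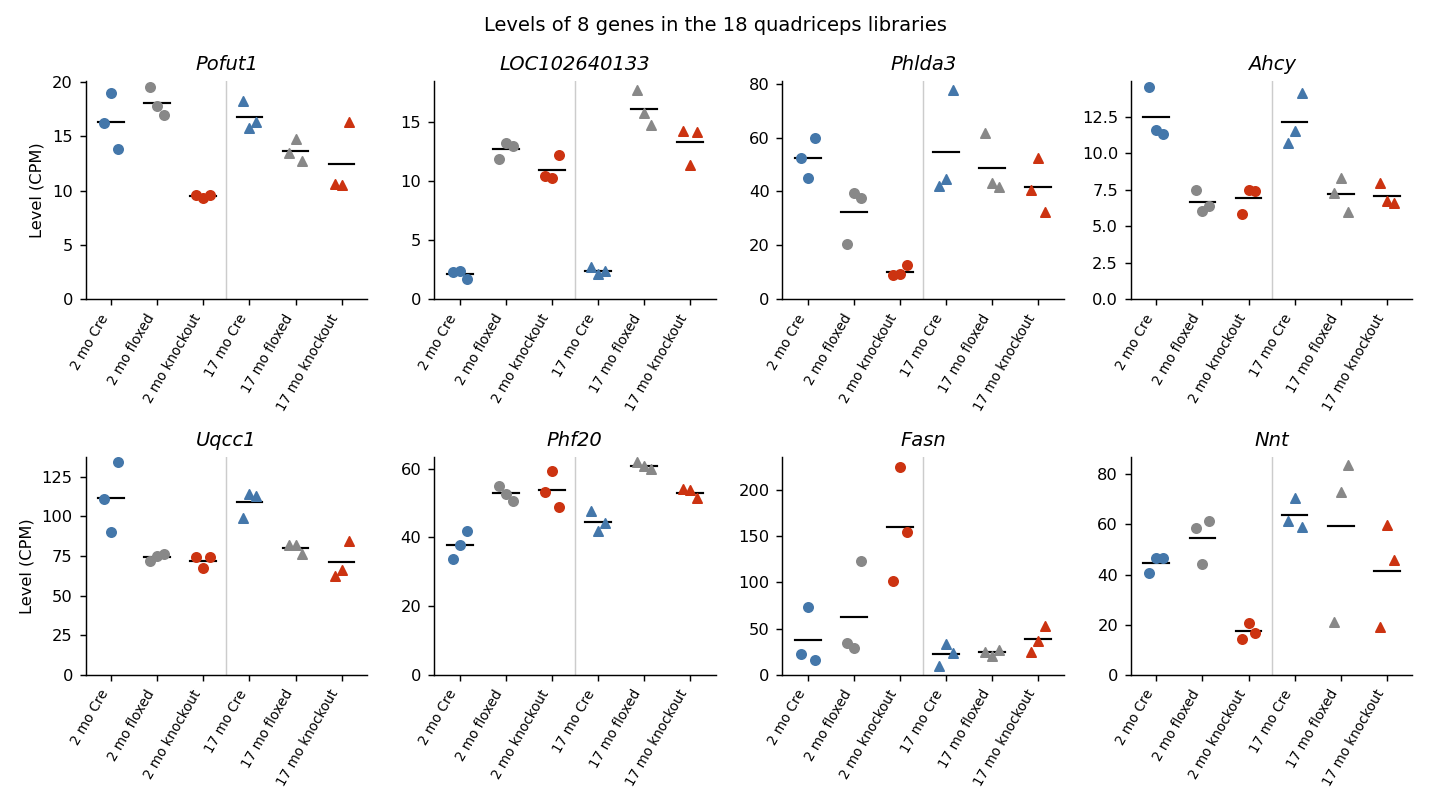
Level in CPM of 8 genes in each of the 18 libraries, by age and genotype, with points for libraries and bars for group means (circles, 2 months; triangles, 17 months). The means of Pofut1, Phlda3 and Nnt are lowest in the 2-month knockout, LOC102640133 is low in the Cre groups of both ages, and at 2 months Ahcy, Uqcc1 and Phf20 in the knockout overlap with the floxed libraries and not with the Cre libraries.

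Genes close to Pofut1 on chromosome 2 separated knockout from Cre muscle in both directions, and in several of them the knockout stood at the level of floxed muscle. Within 5 Mb of its start, 121 other genes were measured, and 13 of them (10.7%) had an unadjusted p under 0.01, against 2.16% of all genes. Of the 13, 6 were higher and 7 lower in the knockout (1.17% and 0.992% of all genes). In the comparison of the same knockout libraries with floxed muscle, 0 of the 121 had such a p by the same edgeR test, against 1.65% of all genes. At 17 months, in other libraries, 11 of the 121 (9.09%) had it in knockout against Cre muscle, against 3.72% of all genes. Both ages together gave 14 genes (11.6%) with non-overlapping groups in the same direction, against 285 of 15224 (1.87%). The share at 2 months was 7.81% from 0 to 2.5 Mb, 14% from 2.5 to 5 Mb, 2.38% from 5 to 10 Mb, 3.33% from 10 to 20 Mb and 1.48% from 20 to 40 Mb. By edgeR 0 of these 121 genes passed over all genes at 2 months, whereas DESeq2 called Ahcy, Phf20, Uqcc1, Ndrg3 and Eif6 (adjusted p = 0.0015, 0.000563, 0.00495, 0.00495 and 0.0422), and the authors' deposited table calls the same 5 genes.

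Ahcy, the enzyme that clears S-adenosylhomocysteine after methylation reactions, starts 1.82 Mb from Pofut1 (chromosome 2, 155059310 to 155074497). It was at 5.85, 7.46 and 7.37 CPM in the knockout and at 14.5, 11.6 and 11.3 CPM in the Cre group (log2 -0.86, SE 0.158, adjusted p = 0.0896). Floxed libraries held 7.49, 6.01 and 6.40 CPM, the level of the knockout. The 17-month values were 7.93, 6.70 and 6.55 CPM against 10.7, 11.5 and 14.1 CPM (log2 -0.78). Uqcc1, an assembly factor of respiratory complex III, lay 2.61 Mb away and followed the same order, with 74.5, 67.1 and 74.4 CPM in the knockout, 111, 90.4 and 134 CPM in the Cre group and 71.5 to 76.4 CPM in floxed muscle (log2 -0.64, adjusted p = 0.162). Its difference at 17 months was -0.61. Phf20, a histone reader of an acetyltransferase complex, went the other way, with 53.2, 59.5 and 49.0 CPM in the knockout, 33.7, 37.7 and 42.0 CPM in the Cre group and 50.7 to 55 CPM in floxed muscle (log2 0.51, SE 0.0927, adjusted p = 0.0896).

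Further neighbours differed in either direction. Eif6, which keeps ribosomal subunits apart, and Pigu, a subunit of the transamidase that attaches GPI anchors, had log2 differences of 0.58 and 0.43, and of 0.48 and 0.56 at 17 months. Ndrg3 had -0.42 and Scand1 -0.52, with -0.02 and -0.30 against floxed muscle. Trp53inp2, a regulator of autophagy, was at 76.2 to 86.1 CPM in the knockout, 98.7 to 135 CPM in the Cre group and 66.7 to 79.5 CPM in floxed muscle. On the other side of Pofut1, Srxn1, an antioxidant sulfiredoxin, had -0.83, and Mylk2, the skeletal myosin light chain kinase, had 0.67 at 2 months and -0.16 at 17 months. Zhx3, a transcriptional repressor 7.53 Mb away, was at 27.9 to 28.2 CPM in the knockout and 20 to 23.1 CPM in the Cre group, with 29.2 to 29.8 CPM in floxed muscle. Pofut1 had another order: at 2 months its knockout libraries lay below all libraries of both control groups, and among the neighbours named here Scand1 did so too (6.91 to 7.91 CPM, against 9.62 to 11.8 and 8.96 to 9.79 CPM). Which chromosome segment each mouse carries with its floxed alleles was not tested.

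**Figure D3:**
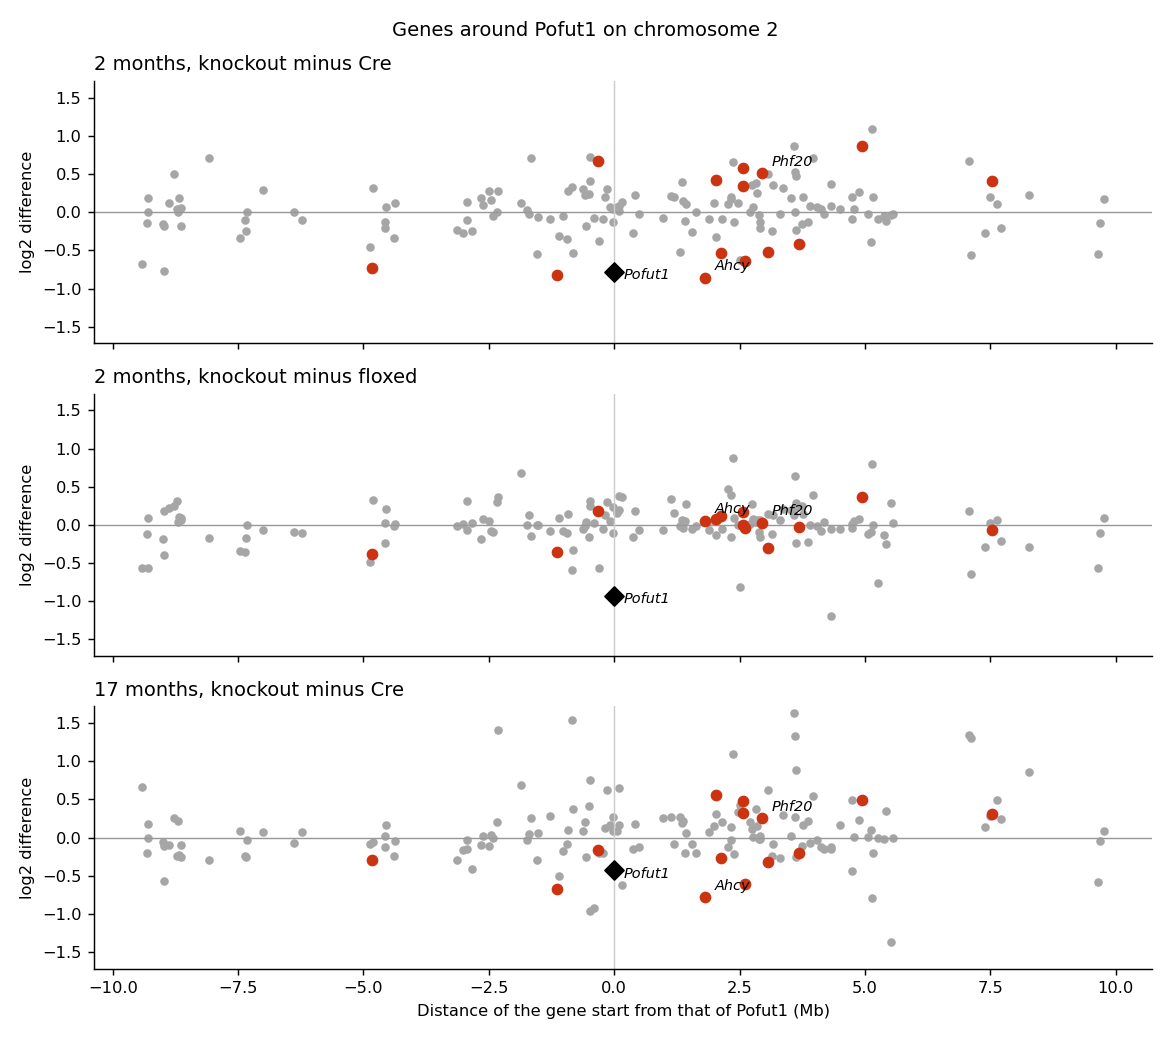
Log2 difference of each measured gene within 10 Mb of Pofut1 and of Pofut1 itself (diamond), against the distance from the start of Pofut1, in 3 comparisons; red marks genes with an unadjusted p under 0.01 in knockout against Cre muscle at 2 months. The red genes spread from -0.86 to 0.86 in the top panel, lie closer to 0 against floxed muscle, and mostly keep their side of 0 at 17 months.

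Of 86 genes placed between 130 and 140 Mb of chromosome 1, 14 (16.3%) lay under an unadjusted p of 0.01 at 2 months and 5 (5.81%) at 17 months, against 2.16% and 3.72% of all genes. Against floxed muscle, with the same knockout libraries, the count was 14 (16.3%). Beside Phlda3, they include Lmod1, a smooth muscle actin nucleator, at 11.4, 12.8 and 17.0 CPM against 4.29, 4.48 and 4.20 CPM, and Ppp1r12b, a myosin phosphatase subunit, at 191, 219 and 176 CPM against 303, 299 and 350 CPM (adjusted p = 0.0896 and 0.0938). Among windows of this length, this one had the highest count in these same libraries, so its 2-month shares are no test of it. Some windows with fewer genes had higher shares in knockout against Cre muscle. Examples are 0 to 10 Mb of chromosome 13 (4 of 21, 19%) and 120 to 130 Mb of chromosome 1 (4 of 23, 17.4%).

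Genes of fatty acid and triglyceride synthesis had the highest share of members with an unadjusted p under 0.05 on the higher side among the 39 gene lists. Of 22 members, 20 had a positive difference, against 49.2% of all genes, the median log2 difference was 0.61, and 12 had every knockout library above every Cre library, against 7.88% of all genes. By edgeR 0 passed over all genes and 11 had an unadjusted p under 0.05 in this direction, against 4.43% of all genes. DESeq2 called 1 member, Acly (adjusted p = 0.0015), which the authors' deposited table also calls (0.00064). Fasn, fatty acid synthase, was at 101, 225 and 154 CPM in the knockout and 22.4, 73.0 and 16.1 CPM in the Cre group (log2 2.11, SE 0.615, adjusted p = 0.351). Acly, which makes cytosolic acetyl-CoA from citrate, was at 45.4, 134 and 54.6 CPM against 18.3, 37.8 and 16.6 CPM (log2 1.69, SE 0.36, adjusted p = 0.191). Acaca, the carboxylase that follows it, had 64.2, 130 and 106 CPM against 33.7, 60.3 and 28.2 CPM. Knockout library 82 was the highest for Fasn, Acly and Acaca, and Cre library 94 was the highest of the Cre group. These are the high-Xist libraries of the 2 groups. In floxed muscle, high-Xist library 32 had 34.2 CPM of Fasn and 28.1 CPM of Acly, below library 92 (123 and 35.6 CPM).

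The regulators of the pathway differed in the same direction. Srebf1, the transcription factor that drives lipogenic genes, was at 36.5, 34.3 and 34.7 CPM in the knockout and 23.6, 23.2 and 17.3 CPM in the Cre group (log2 0.72, adjusted p = 0.401). Thrsp, a lipogenic regulator, was at 45.1, 62.8 and 68.0 CPM against 27.9, 29.2 and 23.9 CPM. Mlxipl, the carbohydrate-responsive factor, overlapped (log2 0.17). Me1, which supplies NADPH, Scd1 and Elovl6, which desaturate and elongate fatty acids, and Dgat2, which completes triglycerides, had log2 differences of 0.59, 1.85, 1.60 and 1.04. In floxed muscle the list was uneven: its summed level was 1383, 1512 and 2768 CPM, against 1804, 2755 and 2674 CPM in the knockout and 1468, 1762 and 1552 CPM in the Cre group. In the 17-month libraries the median difference was 0.30, and 0 members were on the higher side and 2 on the lower side with an unadjusted p under 0.05 by edgeR (6.86% and 5.94% of all genes). Me1 was one of the lower values there (88.2, 79.0 and 83.4 CPM against 101, 93.7 and 121 CPM).

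**Figure D4:**
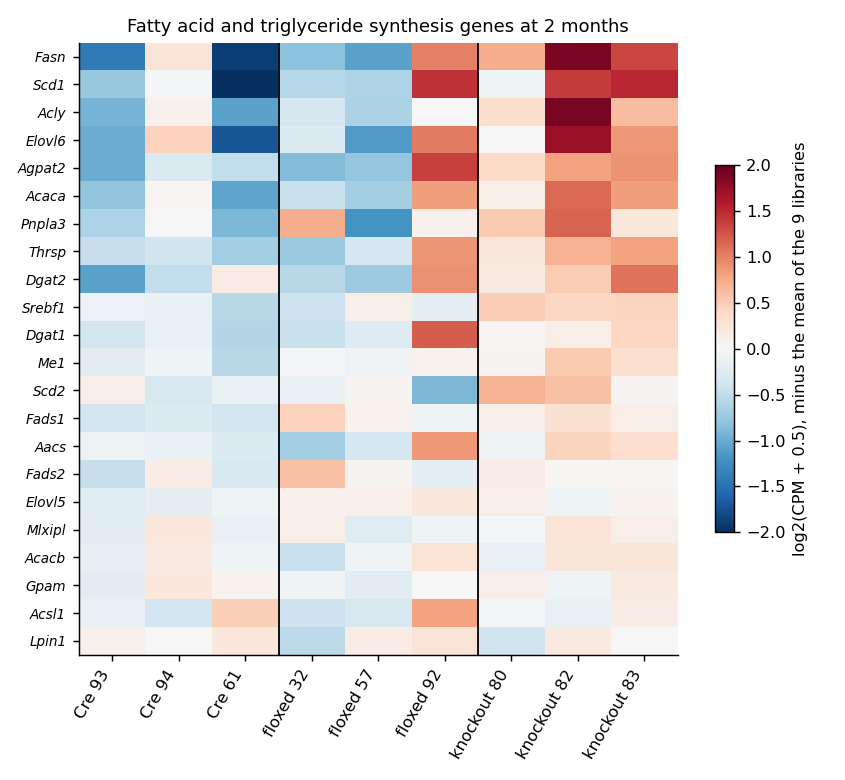
Levels of 22 fatty acid and triglyceride synthesis genes in the 9 libraries at 2 months, as log2(CPM + 0.5) minus the mean of the gene over these libraries (red above, blue below the mean). The summed level of these genes was highest in knockout libraries 82 and 83 (2755 and 2674 CPM) and floxed library 92 (2768 CPM).

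Adipocyte genes were read beside these, since fat between the fibres also makes lipid. Of 23 measured adipocyte genes 21 had positive differences, with a median of 0.56 that was 0.18 without knockout library 83 and 1.10 without Cre library 93. Their summed level overlapped between the groups (2267, 2238 and 3029 CPM against 2058, 2319 and 1528 CPM). By edgeR 2 of the 23 had an unadjusted p under 0.05 on the higher side, against 4.43% of all genes. They were Fasn and Plin1 (log2 1.44 for Plin1, adjusted p = 0.579). Non-overlapping groups on the higher side were found for 2, against 7.88% of all genes. Adipoq and Fabp4 overlapped. Adipoq, adiponectin, was at 28.4, 13.1 and 59.6 CPM in the knockout and 42.9, 17.5 and 10 CPM in the Cre group. Fabp4, a fatty acid carrier, was at 313, 213 and 512 CPM against 337, 209 and 279 CPM. Knockout library 82 had the highest Fasn and the lowest Adipoq of its group. In floxed library 92, Adipoq (112 CPM), Fabp4 (966 CPM) and Fasn (123 CPM) were all the highest of the 3 floxed libraries. The part of adipocyte content in the lipid synthesis values was not tested.

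Cholesterol synthesis genes differed less. Of 19 members 17 had positive differences (49.2% of all genes did), with a median of 0.25, and 9 had non-overlapping groups on the higher side (7.88% of all genes). Insig1, which retains the sterol sensor in the endoplasmic reticulum, was at 24.8, 25.7 and 28.9 CPM against 17.6, 17.6 and 18.5 CPM (log2 0.56, SE 0.145, adjusted p = 0.309). Hmgcs1, an early enzyme of the pathway, overlapped between the groups (log2 -0.02). At 17 months the list median was -0.10 and Insig1 differed by -0.48.

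Promoters of 2 of the fatty acid synthesis genes are shown because lipogenic promoters are known for CCAAT boxes, bound by the factor NF-Y, beside sterol elements. The motif letters CCAAT or ATTGG were searched in the 250 bases before each start (RefSeq, GRCm38.p6), with overlapping matches joined. They occurred in 10 of the 17 members of that list that had a window (58.8%), in 4449 of 11216 measured genes (39.7%) and in 10133 of all 27025 genes (37.5%). A gene with several windows was counted if any of them held a match. Of the 8 members that had both a window and an unadjusted p under 0.05 by edgeR, 4 (50%) held a match. Acly, Acaca, Agpat2 and Elovl6 held none. The windows of Fasn (chr11:120824548-120824797, minus strand) and Thrsp (chr7:97417551-97417800, minus strand) follow with the matches in capitals. A match is a description of the letters and not a bound site.
Fasn: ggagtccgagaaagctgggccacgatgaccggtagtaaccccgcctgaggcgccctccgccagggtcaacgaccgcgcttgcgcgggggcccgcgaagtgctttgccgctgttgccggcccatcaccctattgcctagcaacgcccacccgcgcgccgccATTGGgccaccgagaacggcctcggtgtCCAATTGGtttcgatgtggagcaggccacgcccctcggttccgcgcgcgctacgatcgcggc
Thrsp: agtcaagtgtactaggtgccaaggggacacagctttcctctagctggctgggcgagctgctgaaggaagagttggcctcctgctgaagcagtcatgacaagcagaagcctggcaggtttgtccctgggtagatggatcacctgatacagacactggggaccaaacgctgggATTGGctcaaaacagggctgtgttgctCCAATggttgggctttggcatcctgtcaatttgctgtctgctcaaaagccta

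Interferon-induced genes lay on the lower side. Of 34 measured, 30 had negative differences, with a median of -0.32, and 9 had non-overlapping groups on the lower side, against 7.34% of all genes. An unadjusted p under 0.05 on this side was found for 8, against 3.85% of all genes. By edgeR and DESeq2 0 passed over all genes, and the authors' deposited table calls 1, Mx2 (adjusted p = 0.048). Mx2, an antiviral GTPase, was at 1.18, 1.25 and 1.10 CPM in the knockout and 2.51, 2.24 and 2.45 CPM in the Cre group (log2 -1.02, SE 0.239, adjusted p = 0.241), but floxed muscle held 0.826 to 1.51 CPM and the 17-month difference was 0.29. Ifit3 was at 3.46, 3.24 and 3.40 CPM against 4.70, 6.72 and 6.5 CPM, with 4.27 to 5.11 CPM in floxed muscle and a difference of -1.17 at 17 months. Ifit1, which binds foreign RNA, had -0.82 at 2 months and -0.74 at 17 months. The list median at 17 months was -0.16.

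Nuclear genes of oxidative phosphorylation had small negative differences. Of 50 members 47 were negative, with a median of -0.24, and 7 had non-overlapping groups on the lower side, against 7.34% of all genes. Cycs, cytochrome c, was at 234, 232 and 220 CPM in the knockout and 324, 258 and 351 CPM in the Cre group (log2 -0.45, SE 0.143, adjusted p = 0.416). The value depended on Cre library 61, which had the highest summed level of the 9 libraries (18536 CPM, against 12507 to 14689 CPM in the knockout and 14537 and 13011 CPM in the other Cre libraries), and without it the median was -0.06. The mitochondrial chaperonins Hspd1 and Hspe1, a head-to-head gene pair, had log2 differences of -0.39 and -0.43, and Hspe1 was at 35.1, 38.1 and 34.4 CPM against 53.5, 41.9 and 49.2 CPM (adjusted p = 0.338). Ucp3, the uncoupling protein of muscle, and Pdk4, which blocks glucose oxidation, had log2 differences of -1.17 and -0.97, with 49.6 to 98.7 CPM against 141 to 197 CPM for Ucp3. Both ranged widely in floxed muscle (57.3 to 256 CPM for Ucp3) and differed by 0.27 and 0.37 at 17 months.

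Immediate early genes, which respond within minutes to stimuli and to handling of the tissue, were split. Of 25 measured, 7 had an unadjusted p under 0.05 on the higher side, against 4.43% of all genes, and the summed level did not overlap (310, 335 and 322 CPM against 238, 260 and 248 CPM). Nr4a1, a nuclear receptor induced by exercise, was at 50.4, 55.7 and 67.2 CPM against 20.8, 27.7 and 35.5 CPM (log2 1.05, SE 0.254, adjusted p = 0.242), and Klf4 at 12.9, 10.9 and 12.6 CPM against 8.65, 6.64 and 6.33 CPM. Floxed muscle held 42.0 to 45.3 CPM of Nr4a1 and 8.91 to 10.5 CPM of Klf4, above the Cre libraries in both cases. Fos, the most widely used member, had 3.29 to 7.35 CPM against 3.09 to 7.97 CPM. The median of the list, 0.15, was -0.04 without knockout library 82.

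Contractile and regenerative genes overlapped widely between the groups at this age. No slow fibre, fast fibre, regenerating fibre, denervation or neuromuscular junction gene passed or had an unadjusted p under 0.05 by edgeR, against 8.28% of all genes. Non-overlapping groups were found for 1 regenerating fibre gene on the lower side and 1 denervation gene on each side. Over all genes the shares were 7.34% lower and 7.88% higher. Myh7, the slow myosin, ranged from 162 to 530 CPM in the knockout and from 5.12 to 336 CPM in the Cre group, and Myh4 overlapped as well (log2 0.03). Regenerating fibre genes had a median of -0.21, against 1.06 at 17 months, and slow fibre genes 0.24 against 1.28. With 1 library left out, the 2-month slow fibre median ran from -0.23 (without knockout library 82) to 0.99 (without Cre library 61), and the regenerating fibre median from -0.54 (without knockout library 80) to -0.06 (without knockout library 83). In the cell cycle list 29 of 31 genes were negative, with a median of -0.73 that moved to -0.17 without Cre library 93, whose summed level of 185 CPM was above the 69.0 to 111 CPM of the other 5 libraries. The same library had the highest summed macrophage genes (809 CPM against 320 to 571 CPM), and without it the macrophage median of -0.37 became 0.10.

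Further single genes stood among the smallest p-values. Dip2c was at 52.0, 61.6 and 51.8 CPM against 34.4, 38.3 and 35.0 CPM (log2 0.62, SE 0.11, adjusted p = 0.0896). Park2, the ubiquitin ligase parkin of mitochondrial quality control, was at 43.5, 25.1 and 30.5 CPM against 11, 11.7 and 10.2 CPM, and again at 55.6, 37.6 and 19.6 CPM against 15.3, 15.3 and 15.9 CPM at 17 months (log2 1.59 and 1.28, adjusted p = 0.241 and 0.213). Cdc14a, a phosphatase, had 52.1, 40.4 and 55.9 CPM against 87.4, 120 and 100 CPM, and Nox4, an NADPH oxidase, had 3.87, 4.88 and 3.03 CPM against 8.96, 7.65 and 6.57 CPM. Both had the opposite sign at 17 months (0.59 and 0.67). Ly6a, a surface marker in the fibro-adipogenic list, was at 21.8, 19 and 18 CPM against 29.6, 26.6 and 28.1 CPM (log2 -0.52, adjusted p = 0.241).

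Across all genes, 58.2% of differences had the same sign at both ages. The test of whether the knockout difference changed with age called 0 genes by edgeR, with 1095 genes (7.19%) at an unadjusted p under 0.05, and 20 by DESeq2. The edgeR test at 17 months also called 2 genes.

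**Figure D5:**
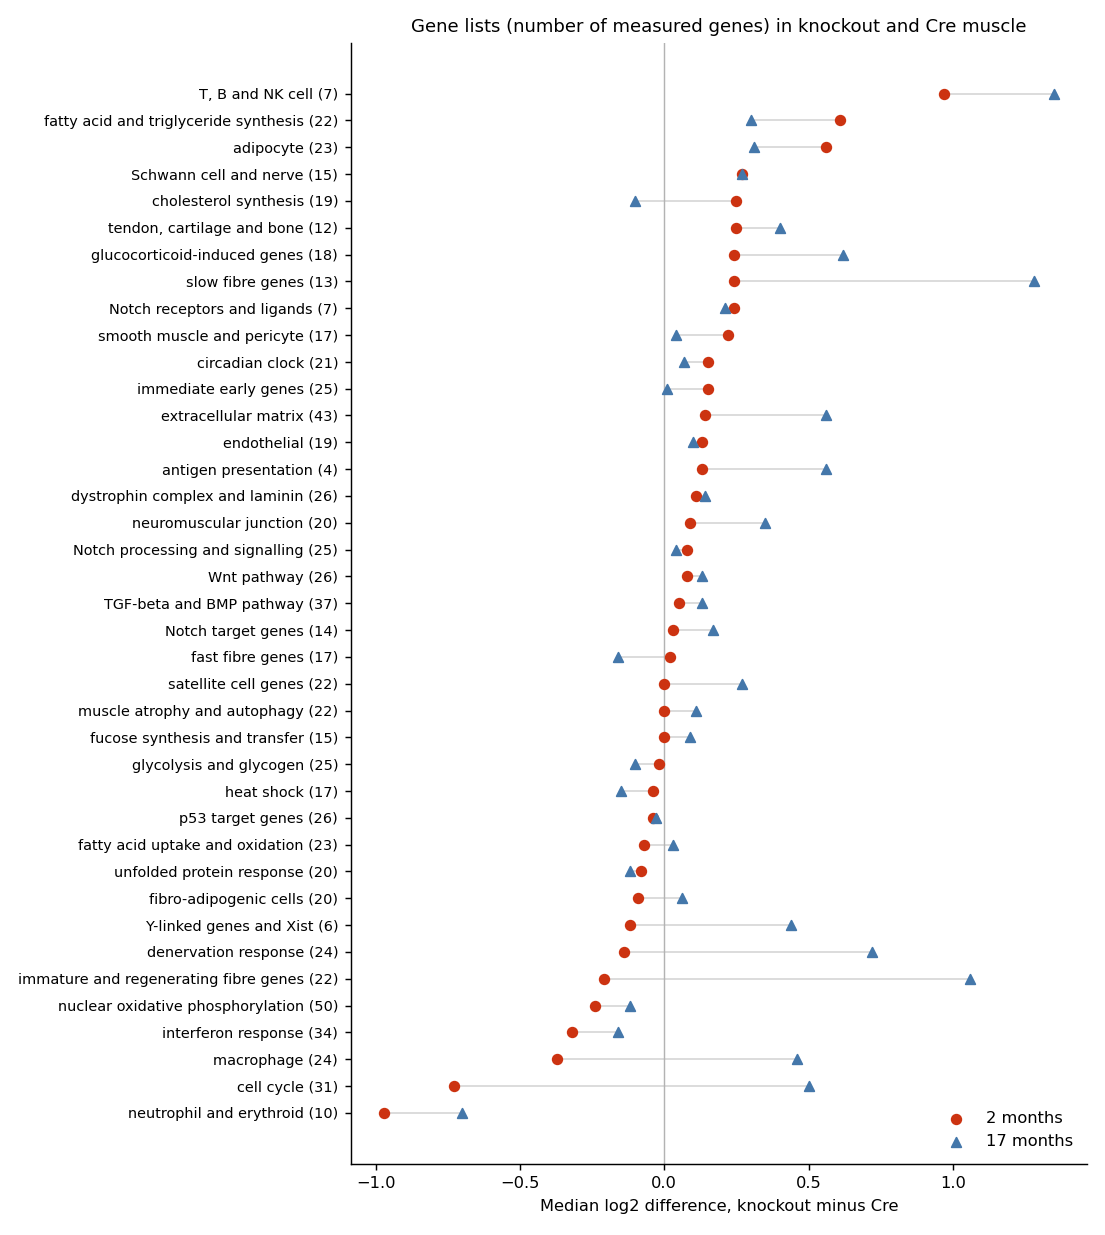
Median log2 difference between knockout and Cre muscle for 39 gene lists at 2 months (circles) and 17 months (triangles), with the number of measured genes in brackets. The fatty acid synthesis and adipocyte lists lie at 0.61 and 0.56 at 2 months, and slow fibre and regenerating fibre lists stand above 1 only at 17 months.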

How the data were processed

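RNA of mouse quadriceps (Trizol, rRNA-depleted ScriptSeq v2 libraries, per the labels' protocols) was measured in 18 libraries, 3 for each genotype and age. The submitters' processing notes name STAR, HTSeq and DESeq2 and the builds GRCm38.p4 and GRCh38.p5; the sources used here give no roles, options or strand setting, so overlapping and antisense genes are uncertain. The authors deposited raw counts per gene, a normalized signal (counts divided by a size factor), log2 fold changes and p-values of their own comparisons. The raw counts were tested here, and the authors' deposited log2 and p-value columns are quoted where named.

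Counts of all 15224 genes (24901936 to 31440196 per library) were fitted with edgeR 4.0.16 (R 4.3.3, limma 3.58.1): TMM scaling, 6 group means over 18 libraries, the quasi-likelihood F-test and Benjamini-Hochberg adjustment over all genes, with a call at adjusted p under 0.05. The low-count filter (minimum count 10) removed no gene. Levels are CPM on TMM-scaled libraries. The model was tested on simulated data. DESeq2 1.42.0 and other settings were alternatives. Positions are RefSeq GRCm38.p6 by Entrez ID (14726 genes). Members and lists were chosen with earlier results of these data known. The genes named are those called, up to 15 per direction with the smallest p at a mean of at least 1 CPM, up to 8 per direction of the authors' calls, up to 3 per list, and fixed members of each pathway; the beta-globin genes and Nnt were added after their values were seen.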

Additional observations from a re-analysis of the deposited data

How the results depend on the processing

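No paired analysis was possible because the groups share no replicate numbers. For knockout against Cre muscle at 2 months, the count of 2 called genes was 47 with DESeq2 (28 higher and 19 lower, 42 of them also in the authors' deposited table), 17 with the groups compared fitted alone, 10 with only the 9 young libraries, 4 with Xist as a covariate and 1 without the regions on chromosomes 1 and 2. It was 2 with RLE factors, a mean of at least 1 CPM or the robust fit, and 1 to 2 with 1 library left out. For knockout against floxed muscle the count of 1 was 44 with DESeq2, 10 with the groups alone, 0 with a mean of at least 1 CPM by edgeR (786 genes at an unadjusted p under 0.05), 4 with Xist, and 0 to 6 with 1 library left out. At 17 months the count of 2 was 120 with DESeq2, 1 with the groups alone, 4 with Xist and 1 to 128 with 1 library left out, 128 of them without knockout library 40. The change with age called 0 by edgeR, 20 with DESeq2, 1 with Xist, and 0 to 1 with 1 library left out. The cause of these differences was not tested.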

Other observations

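Some features were present in 1 group and nearly absent from the other at 2 months. The rule was at least 0.5 CPM in every library of 1 group and at most 0.1 CPM in every library of the other. Of the 15224 genes, 6 were on the knockout side against the Cre group (Hbb-b2, Gm16505, Gm2539, Gm35082, LOC102238518 and Mdm4-ps). On the Cre side were 2 (Gm21464 and Gm32687). Several are pseudogenes or copies of other genes, whose reads the counting could split. For the same knockout libraries against floxed muscle at 2 months, the rule gave 2 features on the knockout side (Gm16505 and Gm2539). On the floxed side it gave 2, again Gm21464 and Gm32687. The same rule gave 0 and 0 features for knockout against Cre muscle at 17 months.

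Extracellular matrix genes had a median log2 difference of 0.14 at 2 months, with 30 of 43 positive, and of 0.56 at 17 months. The 2-month median was -0.08 without knockout library 80 and 0.29 without knockout library 82. Fbln2, a fibulin of elastic fibres and basement membranes, was at 62.6, 64.8 and 54.5 CPM in the 2-month knockout and 40.5, 47.1 and 45.2 CPM in the Cre group, without overlap.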
